A study of Mus musculus with 15 samples.

Results

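The comparison of collagen hydrogel with saline covered 10 of the 15 libraries of the series, 5 labelled rHCI and 5 labelled PBS, taken by their titles, and every gene that passed a filter on low counts. All mice were C57BL/6. Mice of both groups had a myocardial infarction and were injected in the heart muscle 7 days later, with phosphate-buffered saline in the PBS group and with rHCI, a hydrogel made of recombinant human collagen type I, in the other. Messenger RNA was sequenced from left ventricle collected 2 days after the injection. The remaining 5 libraries came from sham-operated, untreated mice of matched age, 10 weeks, and are used below only as a reference level. An infarcted group without injection was not analysed here, so what the injection itself does is common to both groups. RNA came from ground left ventricle, with no separate sampling of scar and spared muscle stated, so each value mixes both. The design text gives 5 biological replicates per group and names no pooling.

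After a coronary artery is closed, dying muscle is cleared by neutrophils and macrophages, and fibroblasts then fill the gap with collagen. Nucleic acids released from dead cells can be sensed by macrophages and other cells, which then make type I interferons. These bind a receptor that activates a complex holding STAT2 and IRF9, and this complex switches on a large set of antiviral genes. Injected collagen gels are studied as a scaffold for the injured wall, and cells read collagen through integrins, discoidin domain receptors and the inhibitory leukocyte receptor LAIR1.

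Total counts were 32978702 to 103356830 per PBS library and 48699092 to 62577074 per rHCI library. Ventricular muscle markers were high in all infarcted libraries, with Myh6 at 11443 to 19151 CPM in PBS and 13362 to 21089 CPM in rHCI libraries (CPM are read counts after scaling all libraries to an equal total). Some libraries stood apart. PBS 6 held 4853 counts of the lung surfactant gene Sftpc, against 0 to 7 in the other infarcted libraries, and also carried skeletal muscle transcripts, with Mylpf at 7.47 CPM against 0.369 to 0.700 elsewhere. rHCI 1 had the highest levels of the atrial genes Myl7, Sln and Myl4. PBS 14 had the lowest collagen and the highest muscle transcript levels of its group, and rHCI 3 the reverse in its own. A number in the labels, perhaps a sequencing run, was shared by 4 libraries of each infarcted group, while PBS 6 and rHCI 1 each carried another. Below it is called the run number, and the libraries that share it the shared run. The labels do not say what the number is.

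The hydrogel group differed little from the saline group across the transcriptome. Of 47069 genes in the table, 16383 were tested, of which 8124 had a lower and 8259 a higher fitted level with rHCI. The median absolute log2 fold change was 0.08, a fold of 1.05. For 95% of genes the difference stayed below 1.29-fold and for 99% below 1.55-fold. None passed an adjusted p of 0.05 with edgeR's quasi-likelihood test and Benjamini-Hochberg adjustment, so percent called was 0. Without adjustment 579 genes had p under 0.05, 3.53% of those tested, where a uniform distribution of p-values would give 5%. Of these, 395 were lower with rHCI, 2.41% of the genes tested, and 184 were higher, 1.12%. DESeq2 called 6 of 16373 genes, 0.0366%, and limma-voom with quality weights called 3 genes, 0.0183%. Leaving out 1 library changed the unadjusted count by over 1.5 times in 4 cases. It was 2066 without rHCI 3 and 1435 without PBS 14, but 362 without PBS 2 and 375 without rHCI 11. The count past the adjusted threshold was 3 without rHCI 13 and 0 without any other single library.

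How large an effect the data leave room for depended on the level of a gene. The 95% interval of the fold change lay within 2-fold for 15538 genes, 94.8% of those tested, within 1.5-fold for 12930, 78.9%, and within 1.25-fold for 8784, 53.6%. Among the 2975 genes under 1 CPM the median half-width of the interval was 1.47-fold, and only 20.8% of their intervals lay within 1.5-fold. Among the 7625 genes from 10 to 100 CPM it was 1.10-fold, and 96.9% of intervals lay within 1.5-fold.

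**Figure D1:**
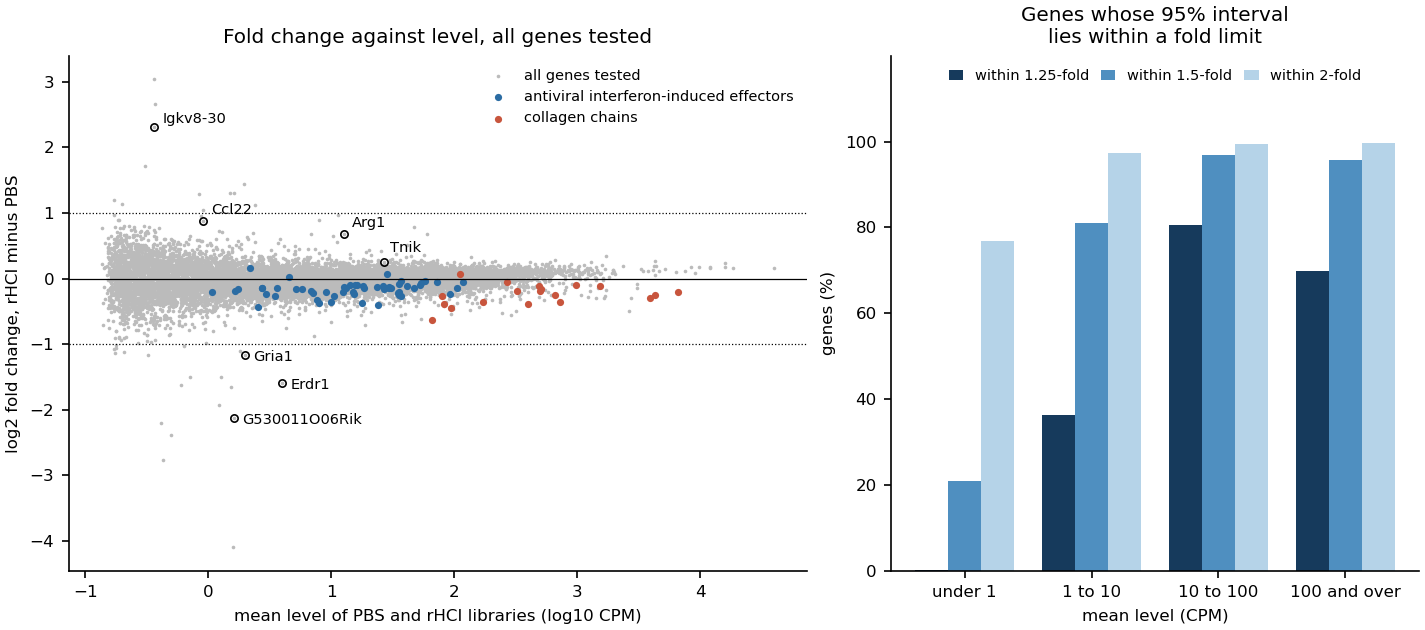
Left, log2 fold change of rHCI against PBS for each tested gene against its mean level in CPM on a log10 axis, with antiviral effectors and collagen chains coloured and dotted lines at a 2-fold change. Right, the percent of genes in each CPM class whose 95% interval lies within 1.25-fold, 1.5-fold and 2-fold, showing the share rise from the class under 1 CPM to the class from 10 to 100 CPM.

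Large changes were confined to rare transcripts, with 1 exception. Over 2-fold differences were fitted for 32 genes, 20 of them lower, and the median level of these genes was 0.622 CPM. Erdr1 was the only one that reached 5 CPM in either group. Over 1.5-fold differences were fitted for 219 genes, of which 16 reached 5 CPM, out of 10925 genes at that level. Apart from Erdr1, the groups overlapped for every one of these 16.

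Of these 16, 5 are atrial or atrium-enriched muscle genes, and they rested on rHCI 1. Myl7, the atrial regulatory myosin light chain, had 57.7, 35.7, 24.0, 31.2 and 23.8 CPM in PBS 2, 6, 9, 12 and 14, and 145, 49.98, 25.1, 49.6 and 25.8 CPM in rHCI 1, 3, 7, 11 and 13. Its log2 fold change of 0.78 ± 0.46 (SE) became 0.13 without rHCI 1. Sln, the sarcolipin gene of the atrial calcium pump, went likewise from 0.97 to 0.06, Myl4 from 0.68 to 0.06, and the kinase gene Sbk3 from 0.64 to 0.08. Mybphl went from 0.89 to 0.02. Bmp10, a defining atrial gene, had 0 to 3 counts in every infarcted library.

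Another 8 of the 16 are matrix or cartilage-type genes, or genes that stood with them, all lower with rHCI. Col2a1, the cartilage collagen, had 6.89, 12.02, 11.5, 13.5 and 2.75 CPM in the PBS libraries, in the same order, and 1.86, 9.17, 6.61, 6.79 and 0.904 CPM in the rHCI libraries. The lowest PBS library was PBS 14, below 3 of the rHCI libraries. Its log2 fold change was −0.88 ± 0.55, and those of Acan, the cartilage proteoglycan, and Col11a1 were −0.71 ± 0.39 and −0.64 ± 0.34. Tnn, which encodes tenascin N, had −0.67, and C1qtnf3 had −0.66, and both were highest in PBS 6. Without that library they were −0.27 and −0.18. Adamts16, Angptl7 and Wscd2 had −0.76, −0.61 and −0.61.

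Arg1 and Agt were the remaining ones, both higher. Arg1, which encodes arginase and marks a macrophage state linked to repair, had 11.2, 6.89, 10.4, 10.3 and 9.91 CPM with PBS and 23.7, 21.8, 7.37, 9.34 and 15.6 CPM with rHCI. It was high in rHCI 1, 3 and 13, while rHCI 7 and 11 lay within the PBS range, for a log2 fold change of 0.68 ± 0.30. Within the shared run it was 0.37. Agt, the angiotensinogen gene, was 0.68 ± 0.31 and rested in part on rHCI 3, without which it was 0.35.

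The genes nearest to the threshold were mostly small or rare. The smallest adjusted p with edgeR and Benjamini-Hochberg adjustment was 0.295, for G530011O06Rik, and every other gene was at 0.871 or above. The 6 genes called by DESeq2 were G530011O06Rik, Erdr1, Gria1, Igkv8-30, Ccl22 and Tnik, with Benjamini-Hochberg adjusted p-values of 3.3e-08, 0.000764, 0.00181, 0.00181, 0.0256 and 0.013 in that tool. Among all genes, every rHCI library lay below every PBS library for 60, 0.366% of those tested, and above for 27, 0.165%. All 6 were among these.

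Gria1, which encodes an AMPA-type glutamate receptor subunit (ENSMUSG00000020524; GRCm38 chromosome 11, 57011387 to 57330244), had 2.58, 2.68, 3.795, 2.8 and 1.92 CPM with PBS and 0.841, 1.75, 1.43, 1.15 and 0.941 CPM with rHCI. The highest rHCI library, rHCI 3, lay just below the lowest PBS library, PBS 14. The log2 fold change was −1.16 ± 0.22, with a 95% interval of −1.66 to −0.67, and the sham level was 0.329 ± 0.0728 CPM (SD, n = 5). Ccl22, a chemokine made by macrophages and dendritic cells that draws regulatory T cells (ENSMUSG00000031779; chromosome 8, 94745590 to 94751699), had 0.569, 0.637, 0.791, 0.653 and 0.533 CPM with PBS and 1.604, 1.105, 1.13, 0.8802 and 1.18 CPM with rHCI. All 5 rHCI libraries were above all 5 PBS libraries, by 0.88 ± 0.18 on the log2 scale, with an interval of 0.49 to 1.28. Sham hearts had 0.113 ± 0.0267 CPM, so the hydrogel group was the farther from sham for this gene.

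Tnik, a kinase gene of the Wnt and cytoskeletal pathways (ENSMUSG00000027692; chromosome 3, 28263214 to 28675858), had 21.9, 25.8, 23.5, 25.2 and 26.2 CPM with PBS and 30.1, 28.1, 28.4, 29.97 and 29.1 CPM with rHCI. The shift was small, 0.25 ± 0.05, but the spread within each group was smaller still, and the sham level was higher than either, 46.1 ± 3.55 CPM. Igkv8-30, a variable segment of the immunoglobulin kappa light chain, had 0.04998 to 0.157 CPM with PBS and 0.295 to 1.18 CPM with rHCI. Reads of near-identical variable segments can be shared, so its value of 2.31 ± 0.44 is uncertain. Genes of B and plasma cells as a list had a median log2 fold change of −0.17 over 15 tested members, with 10 lower.

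Among the gene lists, interferon-induced antiviral genes had the most members at an unadjusted p under 0.05, all of these lower with rHCI. Of 55 antiviral effectors tested, 52 had a lower fitted level, and 26 had an unadjusted p under 0.05 in that direction, 47.3% of the list beside 2.41% of all genes tested. None of the effectors had an unadjusted p under 0.05 in the higher direction. None passed after adjustment. The list was chosen with earlier results of these data known. Its members can move together, so the 26 do not count as separate findings. The list median was −0.15 on the log2 scale, beside 0.00 over all genes, and every member's 95% interval lay within 2-fold. For 5 members all rHCI libraries lay below all PBS libraries, as they did for 60 of the 16383 genes tested, 0.366%. In bulk tissue, fewer cells of a type and less RNA per cell cannot be told apart, here and in all groups that follow.

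Many promoters of these genes carry the tandem GAAA repeat that IRF9 and other interferon regulatory factors recognise. The motif GAAANNGAAA was searched on both strands, overlapping matches included, from 250 bases before to 50 bases after each start in RefSeq on GRCm38.p6. It was present in 3.44% of 32851 promoters, in 3.83% of the 11449 tested genes with a promoter, and in 21 of the 45 antiviral effectors with one, 46.7%. Of the genes induced by interferon gamma, 10 of 11 had it. The 180 bases before the start are shown for 4 effectors whose values are given below, on the gene's strand, with matches on either strand in capitals.
Ifit1, chr19:34640709-34640888, strand +: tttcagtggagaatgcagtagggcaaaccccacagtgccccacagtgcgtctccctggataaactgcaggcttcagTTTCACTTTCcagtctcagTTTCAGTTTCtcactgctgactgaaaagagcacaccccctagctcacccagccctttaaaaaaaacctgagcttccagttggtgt
Ifit3, chr19:34583349-34583528, strand +: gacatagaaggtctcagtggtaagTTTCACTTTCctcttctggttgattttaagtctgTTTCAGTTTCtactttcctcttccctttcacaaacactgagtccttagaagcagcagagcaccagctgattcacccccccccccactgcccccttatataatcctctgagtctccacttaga
Isg15, chr4:156200819-156200998, strand -: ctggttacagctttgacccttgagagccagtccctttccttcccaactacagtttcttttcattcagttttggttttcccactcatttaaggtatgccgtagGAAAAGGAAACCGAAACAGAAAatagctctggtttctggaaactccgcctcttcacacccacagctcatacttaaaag
Oas1a, chr5:120907526-120907705, strand -: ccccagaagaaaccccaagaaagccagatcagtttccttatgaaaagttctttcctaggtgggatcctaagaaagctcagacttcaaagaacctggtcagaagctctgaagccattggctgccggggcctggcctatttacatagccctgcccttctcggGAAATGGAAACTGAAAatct
The matches begin 104 and 85 bases before the start in Ifit1, 156 and 122 in Ifit3, 78, 72 and 66 in Isg15, where they overlap, and 20 and 14 in Oas1a. In Ifit1 and Ifit3 they read on the opposite strand, as TTTC repeats. The median log2 fold change was −0.21 over the 21 effectors with the motif, 12 of them lower at an unadjusted p under 0.05, and −0.15 over the 24 without it, 9 of them lower at that p. Ifit2 and Irf7 had no match in the window searched.

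The ligands themselves were almost absent. The 20 interferon genes in the table summed to 13 counts over the PBS libraries and 12 over the rHCI libraries, with no library above 6, and 16 of them were at 0 in all 10. Ifnb1 had 1 count in each group, and Ifng 7 and 8. None reached the filter, so a difference in the ligands was not detectable at this depth.

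Receptor chains and transducers differed by less than the effectors. Of 13, 10 were lower, 3 of them at an unadjusted p under 0.05, with a median of −0.06. Those 3 were 23.1% of the list, beside 2.41% of all genes tested. Irf9, the DNA-binding part of the complex, had 33.5, 32.7, 35.6, 31.3 and 30.8 CPM with PBS and 28.7, 29.02, 28.98, 31.01 and 29.8 CPM with rHCI. The groups overlapped only through rHCI 11 and PBS 14, and the log2 fold change was −0.15 ± 0.05. Stat2 and the kinase gene Tyk2 were −0.15 ± 0.06 and −0.10 ± 0.04.

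Sensors of nucleic acids were lower in 20 of 21 cases, with a median of −0.15. At an unadjusted p under 0.05, 5 were lower, 23.8% beside 2.41% of all genes tested. Ifih1, which encodes the RNA sensor MDA5 (chromosome 2, 62595798 to 62646255), had 25.3, 23.95, 25.2, 24.2 and 22.4 CPM with PBS and 21.7, 22.2, 19.97, 20.7 and 21.3 CPM with rHCI. The groups did not overlap, though the log2 fold change was only −0.19 ± 0.05. Dhx58, a regulator of those sensors, was −0.36 ± 0.10. Irf7, the factor that amplifies interferon production, had 35.7, 34.3, 33.6, 31.1 and 29.8 CPM with PBS and 26.8, 27.3, 24.2, 28.1 and 30.7 CPM with rHCI, a log2 fold change of −0.26 ± 0.07. Only rHCI 13 reached into the PBS range.

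Among the effectors, Ifit1 (ENSMUSG00000034459; chromosome 19, 34640871 to 34650009), which binds viral RNA lacking host cap methylation, had 21.4, 19.4, 22.8, 18.6 and 17.5 CPM with PBS and 15.9, 13.9, 15.1, 16.7 and 15.4 CPM with rHCI. All rHCI libraries were below all PBS libraries, the log2 fold change was −0.37 ± 0.08 with an interval of −0.54 to −0.19, and the sham level was 7.42 ± 1.34 CPM. Mx1, an interferon-induced GTPase gene, had 3.28, 2.82, 3.32, 2.61 and 2.72 CPM with PBS and 2.25, 2.32, 2.28, 1.902 and 2.07 CPM with rHCI, again without overlap, and a log2 fold change of −0.44 ± 0.11. Ifit3 had 31.0, 27.1, 29.9, 23.9 and 24.6 CPM with PBS and 20.6, 18.98, 18.5, 20.9 and 24.4 CPM with rHCI. Here rHCI 13 lay above PBS 12, and the log2 fold change was −0.40 ± 0.09. Isg15, a ubiquitin-like modifier, had 12.3, 11.3, 12.1, 11.4 and 9.01 CPM with PBS and 8.96, 8.802, 8.12, 8.598 and 9.15 CPM with rHCI. PBS 14 was low, just under rHCI 13, and the log2 fold change was −0.36 ± 0.09.

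Ifit2 was −0.27 ± 0.07 on the log2 scale, and Lgals3bp, a secreted binding partner of galectins, −0.24 ± 0.06. Oas1a, which makes the messenger that activates RNase L, had 7.59, 7.26, 8.91, 7.81 and 6.75 CPM with PBS and 7.02, 6.76, 6.01, 6.32 and 6.69 CPM with rHCI, a log2 fold change of −0.22 ± 0.08. Only rHCI 1 and rHCI 3 reached the lowest PBS library, PBS 14. For Ifit1, Mx1, Ifit3, Isg15 and Oas1a the hydrogel mean lay between the saline mean and the sham mean, and nearer to saline.

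**Figure D2:**
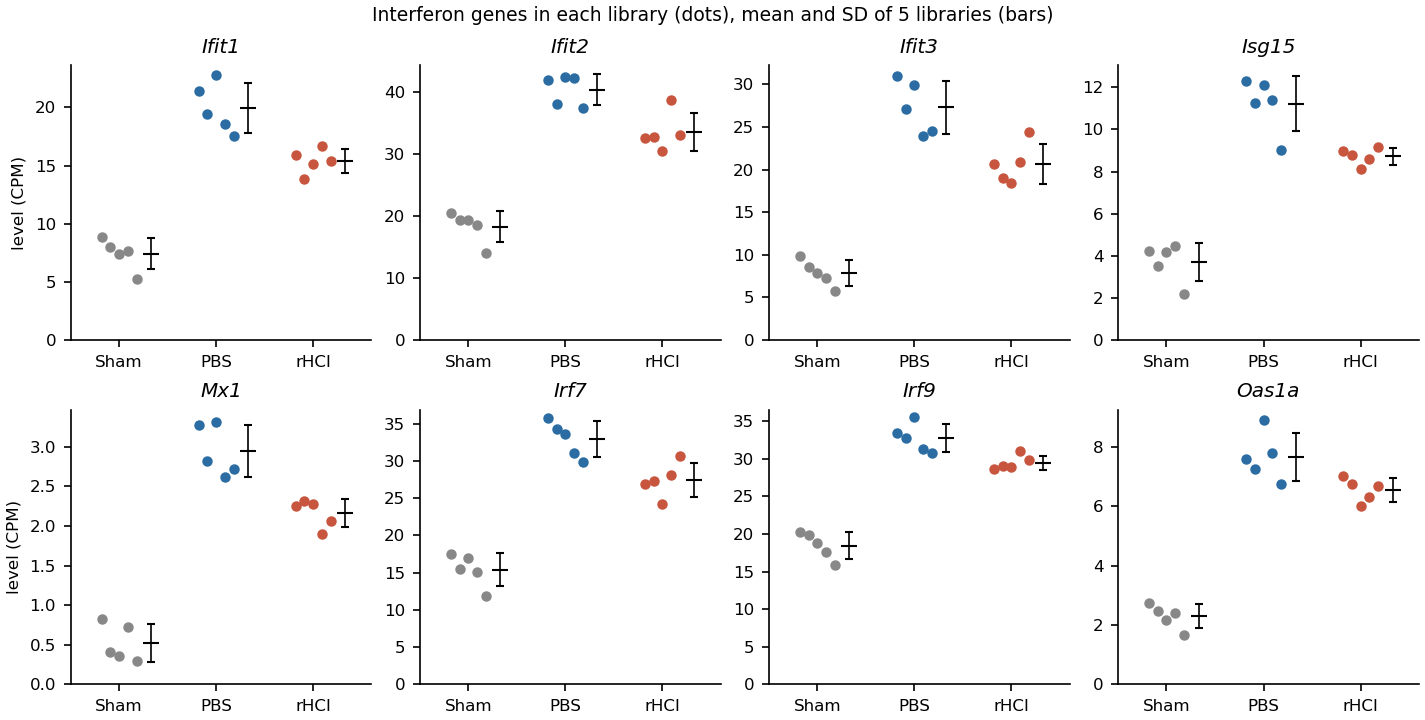
CPM of Ifit1, Ifit2, Ifit3, Isg15, Mx1, Irf7, Irf9 and Oas1a in each sham, PBS and rHCI library, with the mean and SD of each group (n = 5). Ifit1 and Mx1 show no overlap between rHCI and PBS, while for Oas1a rHCI 1 and rHCI 3 reach the lowest PBS library, PBS 14.

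The difference was spread over libraries. For each of the 10 libraries the members above their own 10-library mean were counted. Of the 55 effectors, 50, 42, 50, 43 and 15 were above it in PBS 2, 6, 9, 12 and 14, and 12, 14, 7, 16 and 12 in rHCI 1, 3, 7, 11 and 13. PBS 14 was thus close to the hydrogel libraries. The mean log2 CPM of the effectors was 3.82 to 4.02 over PBS libraries and 3.74 to 3.80 over rHCI libraries. Without PBS 14, 35 effectors were lower at an unadjusted p under 0.05, and without PBS 9 or PBS 2 it was 15 or 16. Of all genes tested, 1435, 393 and 362 had that p in either direction in these fits, beside 579 with all 10 libraries. The number of effectors with a lower fitted level was 51 to 53 whichever library was left out, and 52 within the shared run.

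Genes that limit the response were mixed in direction, while most genes of interferon gamma had a lower fitted level. Of 7 feedback inhibitors, 2 were lower and 5 higher, with a median of 0.04. Usp18, which removes ISG15 and dampens the receptor, was −0.17 ± 0.07 with no overlap between groups, while Socs3 was 0.19 ± 0.18. Of 19 interferon gamma genes, 16 were lower, 2 of them at an unadjusted p under 0.05, with a median of −0.08. Those 2 were 10.5% of the list, beside 2.41% of all genes tested. Irgm1 and Gbp3, GTPases of cell-autonomous defence, were −0.27 ± 0.08 and −0.24 ± 0.09, and the T cell attractant Cxcl10 −0.36 ± 0.19. The counts by library did not follow the groups. Of the 19, 17 were above their mean in rHCI 11 and 1 in rHCI 3, while 19 were in PBS 6 and 4 in PBS 12. Antigen presentation genes were lower in 17 of 18 cases, none at an unadjusted p under 0.05, with a median of −0.09.

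Lower levels with rHCI were also fitted for a few transcripts of the region shared by X and Y and its border. Erdr1 (ENSMUSG00000096768), an apoptosis-linked gene of that region, had 5.53, 5.81, 5.62, 7.26 and 5.63 CPM with PBS and 1.45, 1.602, 1.35, 1.305 and 4.21 CPM with rHCI. Only rHCI 13 approached the PBS libraries, and the log2 fold change was −1.59 ± 0.30, with an interval of −2.25 to −0.94. GENCODE M21 places this identifier on chromosome Y, 90784738 to 90816464, under the name Gm47283. Sham libraries had 5.07 ± 2.19 CPM, with 1 at 1.45 CPM, so low values also occurred without infarct or injection.

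Mid1, a ubiquitin ligase gene that spans the border of the region (X, 169685199 to 170005736, plus strand), had 8.08, 6.905, 7.56, 6.45 and 6.197 CPM with PBS and 5.16, 6.44, 4.73, 4.68 and 4.78 CPM with rHCI, a log2 fold change of −0.44 ± 0.11. The single overlap was rHCI 3 with PBS 14. Inside it on the minus strand lie G530011O06Rik (169975043 to 169978917) and Gm15726 (169979047 to 169985232). G530011O06Rik had 2.55, 1.95, 3.39, 2.26 and 2.97 CPM with PBS and 0.509, 0.718, 0.399, 0.299 and 1.09 CPM with rHCI, the largest gap relative to its error of any gene, −2.12 ± 0.30, with an interval of −2.78 to −1.46. Gm15726 had 0.572 to 1.11 CPM with PBS and 0 to 0.424 CPM with rHCI, and was −2.77 ± 0.64.

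For Erdr1 and both minus-strand transcripts, rHCI 13 was the highest hydrogel library. Without it, these 3 genes passed, with edgeR and Benjamini-Hochberg adjusted p-values of 3.97e-05 for Erdr1, 0.00827 for G530011O06Rik and 0.00827 for Gm15726. Sham means stood differently against PBS. Sham hearts had 0.336 ± 0.265 CPM of G530011O06Rik, below every PBS library, but 5.07 ± 2.19 CPM of Erdr1, a range that spans most PBS values. Between sham libraries the 3 genes varied alike at the low end. Sham 18 was lowest for Erdr1, G530011O06Rik and Gm15726, at 1.45, 0.0381 and 0.0381 CPM, and Sham 20 was second lowest for each. The Y-linked genes Ddx3y, Kdm5d and Eif2s3y had 0 counts in every library. The strand setting of the counting is not given in the sources used here, and reads of Mid1 and of its antisense transcripts cannot be told apart without it.

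**Figure D3:**
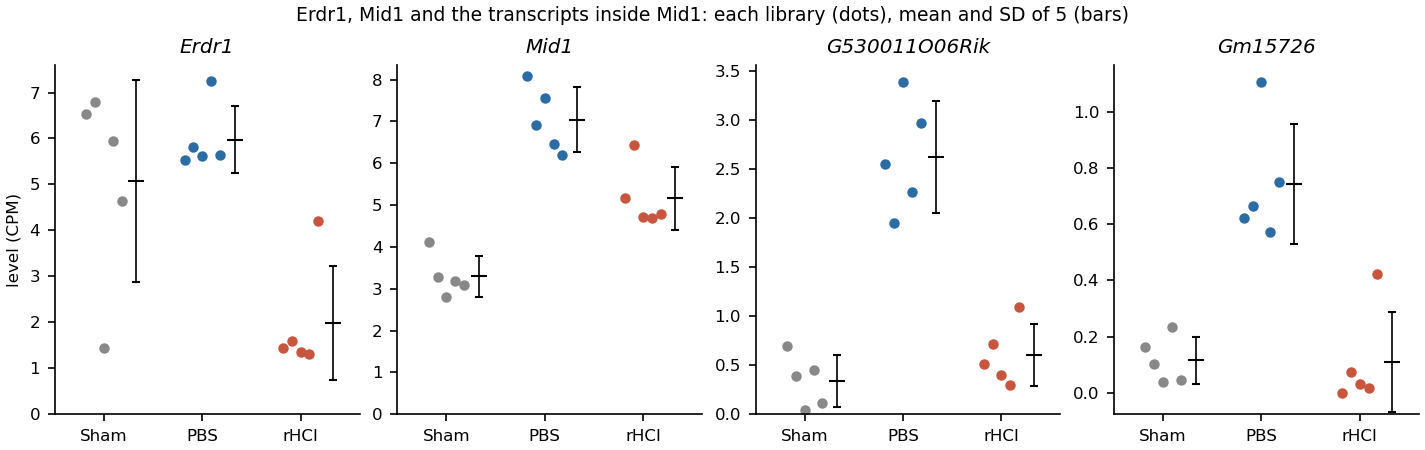
CPM of Erdr1, Mid1, G530011O06Rik and Gm15726 in each sham, PBS and rHCI library, with the mean and SD of each group (n = 5). All rHCI libraries lie below all PBS libraries for Erdr1, G530011O06Rik and Gm15726, with rHCI 13 nearest to PBS.

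The hydrogel adds collagen protein, which RNA sequencing does not measure. Mouse collagen transcripts were lower in fitted level, but by less than their spread. Of 19 collagen chains, 18 were lower, none at an unadjusted p under 0.05, with a median of −0.25. Col1a1 and Col1a2, the chains of type I collagen, were −0.25 ± 0.17 (interval −0.63 to 0.14) and −0.29 ± 0.18 (−0.68 to 0.10), and Col3a1 was −0.21 ± 0.15 (−0.55 to 0.12). Col1a2 ranged over 3070.4 to 4728 CPM with PBS and 2612 to 4848 CPM with rHCI, so the hydrogel group held both the highest and the lowest library. The intervals leave out a rise of Col1a1 above 1.10-fold and a fall below 0.65 of the saline level.

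Of 24 genes that process and crosslink collagen, all were lower, with a median of −0.16. At an unadjusted p under 0.05 was 1 of them, 4.17% beside 2.41% of all genes tested. That gene was P4ha3, a prolyl hydroxylase subunit, at −0.50 ± 0.23, and Fkbp10, a collagen chaperone, was −0.22 ± 0.10. Of 27 matricellular and other matrix genes, 26 were lower, 2 at that p (7.41%), with a median of −0.27. Wisp1, a fibroblast growth regulator, had 46.2, 51.6, 41.8, 51.5 and 30.1 CPM with PBS and 28.2, 41.8, 33.5, 23.3 and 22.6 CPM with rHCI, a log2 fold change of −0.56 ± 0.19. Tnc, tenascin C of healing tissue, was −0.41 ± 0.17. PBS 14 was the lowest PBS library for both and lay inside the hydrogel range.

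Activated fibroblast genes were lower in 23 of 23 cases, with a median of −0.25. At an unadjusted p under 0.05 were 2 of them, 8.70% beside 2.41% of all genes tested. Sfrp2, a secreted Wnt modulator, had 357, 415, 359, 364 and 231 CPM with PBS and 225, 305, 287, 201 and 159 CPM with rHCI, a log2 fold change of −0.55 ± 0.19. Ptn, the growth factor pleiotrophin, was −0.47 ± 0.17. Resting fibroblast genes were split, 9 lower and 7 higher, with a median of −0.01. Of 31 matrix proteases and inhibitors, 23 were lower, 3 at that p (9.68%). In the higher direction 1 was at that p, 3.23% beside 1.12% of all genes tested. It was Timp4, an inhibitor of matrix proteases made by heart muscle, at 0.28 ± 0.11.

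For these genes PBS 14 stood with most rHCI libraries, and rHCI 3 with most PBS libraries. Of 19 collagen chains, 18, 17, 18, 19 and 2 were above their 10-library mean in PBS 2, 6, 9, 12 and 14, and 3, 19, 9, 0 and 0 in rHCI 1, 3, 7, 11 and 13. Sarcomere genes gave the mirror image, with 1, 9, 1, 2 and 20 of 22 above in PBS and 17, 3, 14, 21 and 19 in rHCI. The difference between the mean log2 CPM of sarcomere genes and of collagen chains was 1.87 ± 0.333 with PBS (SD, n = 5) and 2.28 ± 0.566 with rHCI. With this difference as a covariate, the medians were −0.02 for collagen chains, −0.04 for matricellular genes and −0.02 for activated fibroblast genes. The covariate is built from the collagen and sarcomere genes, so their own medians move toward 0 by construction. How far scar size or sampling differed between hearts was not tested.

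With the covariate, 53 of 55 effectors were lower, 18 at an unadjusted p under 0.05, and their median went from −0.15 to −0.12. That of nucleic acid sensors went from −0.15 to −0.07, with 18 of 21 lower, 4 at that p. That of interferon gamma genes went the other way, from −0.08 to −0.21, with 18 of 19 lower, 3 at that p. Under the same covariate 445 genes were lower and 347 higher at that p in all. rHCI 3, with all 19 collagen chains above their mean, had 14 of 55 effectors above theirs. PBS 14, with 2 collagen chains above, had 15 effectors above, the fewest of its group. Whether the mix of scar and muscle has a part in the effector difference was not tested.

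**Figure D4:**
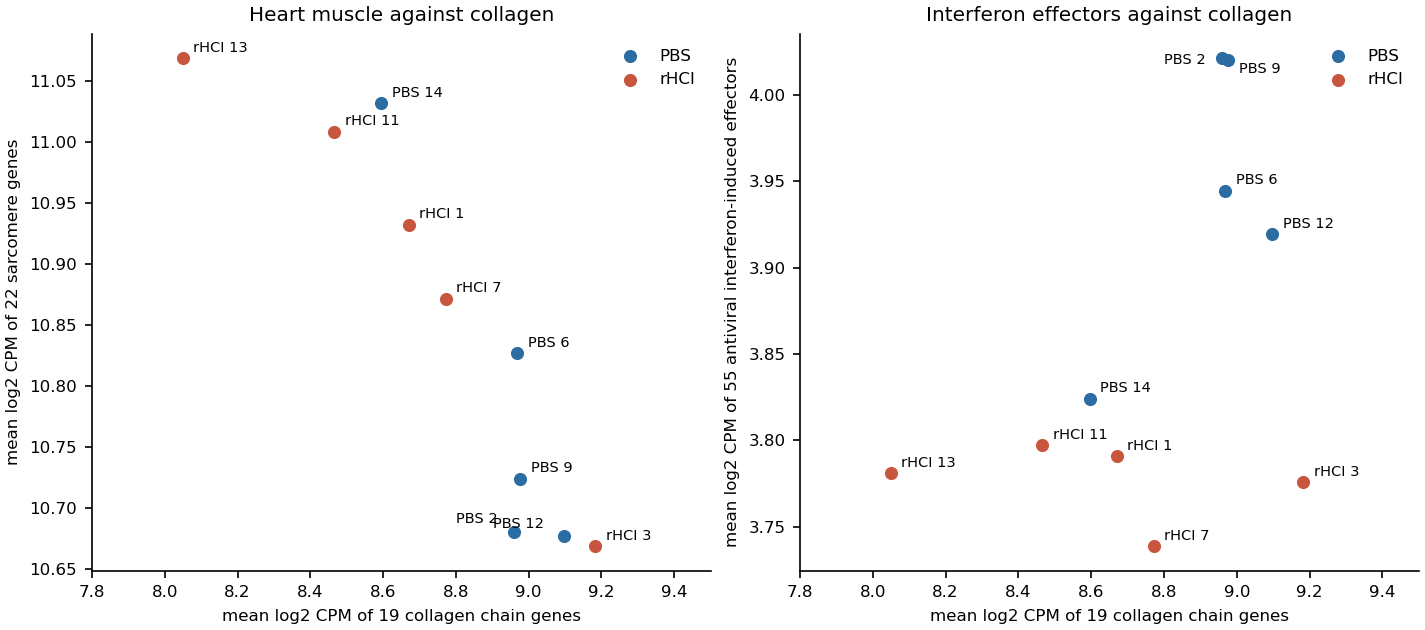
Each point is 1 infarcted library, with the mean log2 CPM of the collagen chains on the horizontal axis and that of sarcomere genes (left) or antiviral effectors (right) on the vertical axis. PBS 14 lies with most rHCI libraries and rHCI 3 with most PBS libraries on the left. On the right all rHCI libraries, between 3.74 and 3.80, lie below all PBS libraries, between 3.82 and 4.02, with PBS 14 the lowest of these.

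Receptors that cells use to sense or take up collagen showed 1 member of 17 without overlap. Over all genes tested, 0.366% had every rHCI library below every PBS library. Of the 17, 13 were lower, with a median of −0.07 that was 0.04 with the same covariate. At an unadjusted p under 0.05 was 1 of them, 5.88% beside 2.41% of all genes tested. It was Lair1, an inhibitory collagen receptor of leukocytes (ENSMUSG00000055541; chromosome 7, 4003402 to 4063204), with 12.3, 9.397, 10.3, 10.3 and 8.53 CPM with PBS and 6.42, 7.9, 7.82, 8.299 and 8.24 CPM with rHCI. All rHCI libraries were below all PBS libraries, by −0.39 ± 0.11 with an interval of −0.62 to −0.16, and the sham level was 1.41 ± 0.511 CPM. Oscar, a collagen receptor of myeloid cells, was −0.51 ± 0.25, and Fcer1g, the adaptor through which it signals, −0.20 ± 0.10. Itga11, the collagen-binding integrin chain of fibroblasts, was −0.41 ± 0.28, and Ddr1, a discoidin domain receptor, −0.07 ± 0.07 with an interval of −0.22 to 0.08.

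Macrophage genes were lower in 16 of 20 cases, with a median of −0.17 that became −0.03 with the sarcomere and collagen covariate. At an unadjusted p under 0.05, 2 were lower, 10% beside 2.41% of all genes tested. Fcgr1, the high-affinity antibody receptor, had 13.7, 10.1, 11.1, 9.602 and 9.48 CPM with PBS and 9.41, 9.21, 9.104, 8.02 and 8.797 CPM with rHCI, without overlap, and a log2 fold change of −0.27 ± 0.11. Trem2, a lipid receptor of macrophages that clear debris, was −0.39 ± 0.16, with PBS 14 far below the other PBS libraries. Cd180, a modulator of Toll-like receptor signalling on macrophages and B cells (ENSMUSG00000021624; chromosome 13, 102693558 to 102739629), had 8.92, 6.52, 7.26, 7.41 and 5.35 CPM with PBS and 5.18, 5.28, 4.69, 5.03 and 5.26 CPM with rHCI. The groups did not overlap, with PBS 14 only just above rHCI 3, and the log2 fold change was −0.47 ± 0.12. Resident macrophage genes were split, 8 lower and 7 higher, with a median of −0.03.

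No gene of a foreign body reaction was higher beyond its error. Of 12 genes of giant cells and foreign body responses, 11 were lower and 1 higher, none at an unadjusted p under 0.05, with a median of −0.12. Ctsk, a collagen-degrading protease of such cells, was −0.21 ± 0.13 with an interval of −0.50 to 0.07. Sirpa and Mmp14, the 2 members with the smallest p, were −0.14 ± 0.07 and −0.31 ± 0.17.

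Signals that attract or activate leukocytes were mixed in direction. Of 29 cytokines and chemokines tested, 18 were higher and 11 lower, beside 8259 higher and 8124 lower over all genes, with a median of 0.05 that was −0.00 without PBS 14. Il1a, an alarm cytokine released by dying cells, was the only one at an unadjusted p under 0.05. That is 3.45% of the list, beside 1.12% of all genes tested that were higher at that p. Il1a had 0.407, 0.24, 0.141, 0.222 and 0.1999 CPM with PBS and 0.45, 0.405, 0.233, 0.346 and 0.4795 CPM with rHCI. The groups overlapped through PBS 2 and rHCI 7, and the log2 fold change was 0.71 ± 0.28. Ccl6, a macrophage chemokine, was 0.28 ± 0.15. Neutrophil genes were higher in 9 of 11 cases with a median of 0.15, none at that p, and Cxcr2, the neutrophil chemokine receptor, was 0.52 ± 0.38. T and NK cell genes were split, 14 lower and 10 higher. Among them Cd8a, the co-receptor of cytotoxic T cells, was −0.75 ± 0.26 and Prf1, the pore protein of killer cells, 0.42 ± 0.13, the latter with all rHCI libraries above all PBS libraries at 0.456 to 0.567 CPM.

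Heart muscle and mitochondrial genes were higher in fitted level, each by little, and none at an unadjusted p under 0.05. Sarcomere genes were higher in 21 of 22 cases (median 0.12), calcium handling and channel genes in 25 of 28 (0.12), fatty acid oxidation genes in 27 of 28 (0.17), TCA cycle genes in 23 of 23 (0.13), nuclear oxidative phosphorylation genes in 41 of 41 (0.12) and mitochondrially encoded genes in 13 of 13 (0.20). Of the 41 oxidative phosphorylation genes, 1, 35, 0, 0 and 41 were above their mean in PBS 2, 6, 9, 12 and 14, and 38, 0, 21, 41 and 41 in rHCI 1, 3, 7, 11 and 13, so hearts of each group lay on both sides. With the sarcomere and collagen covariate the medians were 0.01 for sarcomere genes, −0.07 for calcium handling, −0.06 for fatty acid oxidation, −0.04 for the TCA cycle and −0.03 for oxidative phosphorylation.

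Myh6, the adult myosin heavy chain, was 0.24 ± 0.17, with an interval of −0.14 to 0.62. Cox6c, a subunit of cytochrome oxidase, had 415, 466, 435, 390.4 and 471 CPM with PBS and 486, 386, 469, 517 and 557 CPM with rHCI, a log2 fold change of 0.15 ± 0.09. All 5 PBS libraries lay inside the hydrogel range, since rHCI 3 was below every one of them. Nppa, the stress-induced atrial natriuretic peptide, was −0.14 ± 0.31, with the 2 lowest of all 10 libraries, rHCI 11 and 13, and the highest, rHCI 1, all in the hydrogel group. Its interval of −0.83 to 0.54 leaves room for a fall to 0.564 of the saline level and a rise to 1.46-fold. The library with the highest Nppa, rHCI 1, also had the highest levels of the atrial genes Myl7, Sln and Myl4.

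Cell cycle genes were lower in 26 of 27 cases, with a median of −0.16 that became 0.06 with the covariate. At an unadjusted p under 0.05 was 1 of them, 3.70% beside 2.41% of all genes tested. That gene was Mcm2, a DNA replication helicase subunit, at −0.29 ± 0.10. Vessel genes differed little. Of 21 endothelial genes, 9 were lower and 12 higher, and the median was 0.02. Within 1.25-fold lay 18 of the 21 intervals, beside 53.6% for all genes tested and 80.6% for genes from 10 to 100 CPM. The median level of the list was 67.8 CPM. With the covariate all 21 were higher, with a median of 0.09. At an unadjusted p under 0.05, 2 of them were higher, beside 347 of all 16383 genes tested. Of 24 angiogenic factors, 14 were lower, 2 at that p (8.33%), with a median of −0.02. These were Edn1, the vasoconstrictor endothelin, at −0.31 ± 0.13, and Angptl2 at −0.18 ± 0.07. Ager, which encodes the receptor for glycated proteins, was −1.51 in log2 fold change and −0.23 without PBS 6, the library with lung transcripts.

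**Figure D5:**
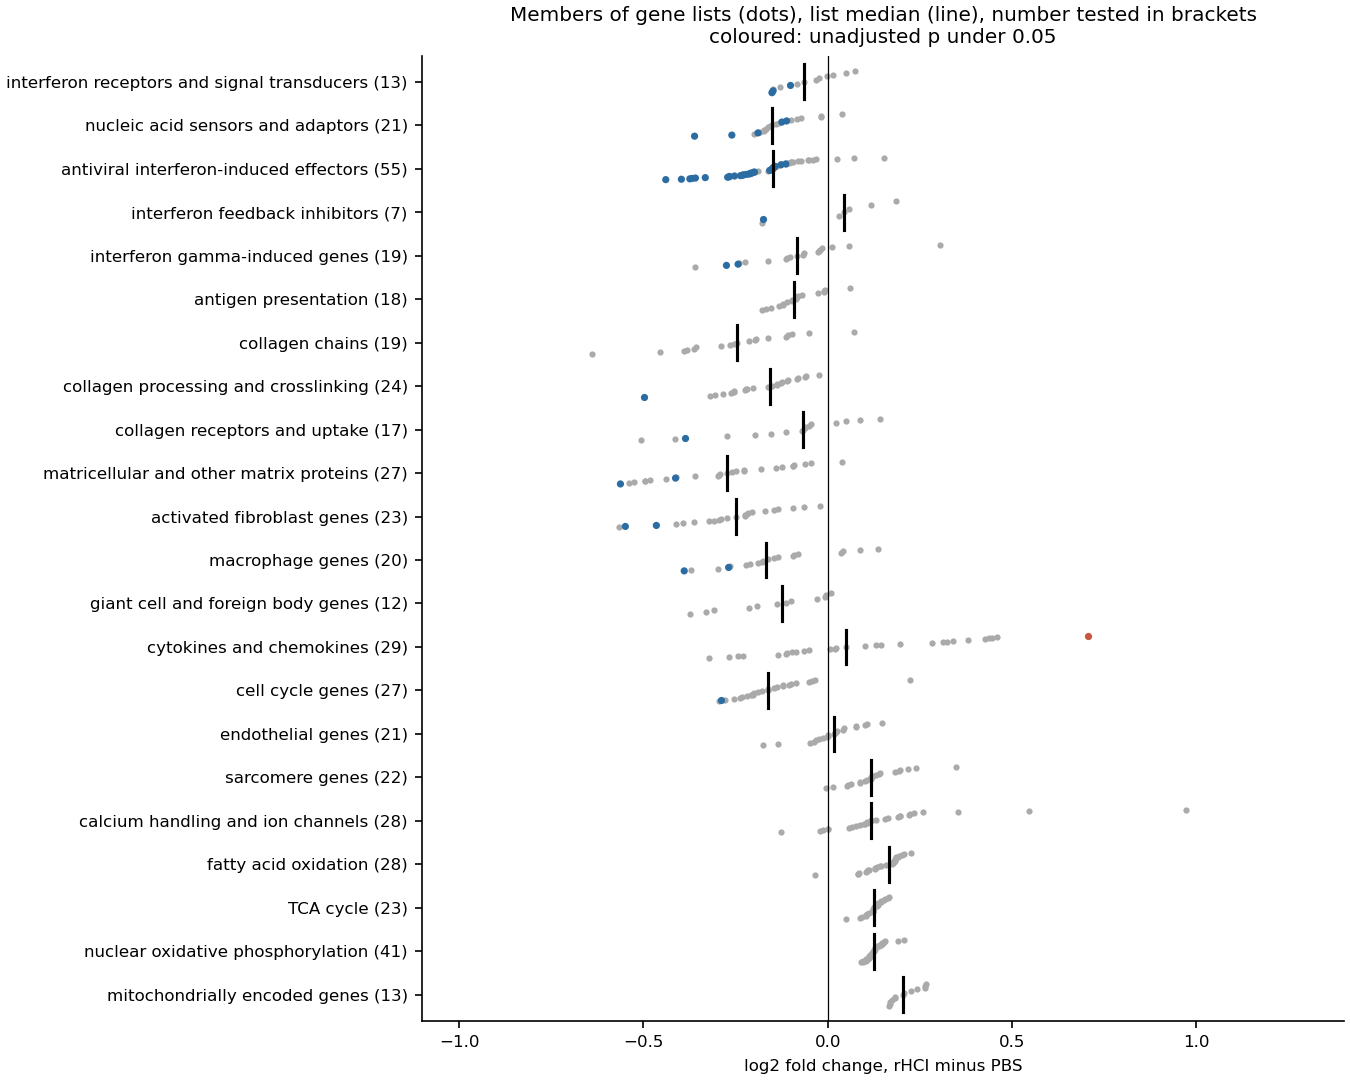
Log2 fold change of rHCI against PBS for each tested member of 22 gene lists, 1 row per list, with a line at the median and members at an unadjusted p under 0.05 in colour. The antiviral effectors hold 26 coloured members, all below 0. Sarcomere, TCA cycle and oxidative phosphorylation members lie above 0, except for 1 sarcomere gene, with none coloured.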

How the data were processed

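Messenger RNA of left ventricle was sequenced from stranded libraries, per the labels' protocols. What the authors deposited was 1 table of read counts per gene and library, whole numbers with differing totals. STAR, Trimmomatic, edgeR and Cufflinks, and the builds mm10 and GRCm38, are listed in the submitters' processing notes, with no role or version. Which tool counted the reads, with what strand setting and annotation, is not given in the sources used here. Of 47069 identifiers, 46488 were in GENCODE M21 on GRCm38, which gave positions. Promoters came from RefSeq on GRCm38.p6. Titles gave the groups, and their animal numbers are not shared between groups. Were libraries of 1 group not from separate mice, a p-value would cover only the spread between libraries. Over 30 replicate pairs the lowest chi-square per gene was 10.7, so none was treated as a repeat.

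The rHCI and PBS libraries were tested with edgeR 4.0.16 in R 4.3.3 (filterByExpr, TMM factors, then glmQLFit and glmQLFTest, a two-sided quasi-likelihood test, with Benjamini-Hochberg adjustment over all genes tested), without sham libraries. An error beside a log2 fold change is its standard error (SE), the 95% interval comes from the same fit, and the procedure was checked on simulated counts. CPM were computed here with TMM factors over all 15 libraries, and list scores are means of log2 CPM with a prior count of 2. Intervals cover the spread between libraries as well as counting error.

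The comparison and its 59 gene lists were chosen with earlier results of these data known. The genes named are, at 5 CPM or more, the 8 per direction with the smallest p and the 6 per direction with the largest change without overlap, 2 members per list described (4 for interferon lists and collagen receptors), and Col1a1, Col1a2, Col3a1, Myh6, Nppa, Erdr1 and Ager. The text names part of them, and results on items withheld for evaluation are not reported here. The genes over 1.5-fold, the genes called by DESeq2, the transcripts inside Mid1, Mx1, Oas1a, Ddr1, Ctsk, Sftpc, Bmp10 and the Y-linked genes were added after their values were seen.

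Results were recomputed with RLE factors, with DESeq2 1.42.0, with limma-voom (limma 3.58.1) and quality weights, without a filter or with a stricter one, with all 15 libraries fitted together, with the run number as a covariate, within the shared run, with the sarcomere and collagen covariate, and without each replicate in turn. The main test used all 10 libraries.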

Additional observations from a re-analysis of the deposited data

Results flagged for a closer look

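Some values lay far from the other 4 libraries of their group, by Dixon's test at the 95% level, which marks about 1 in 20 groups by chance. Over 210 groups tested, 29 outliers were found, where 10.5 were expected by chance. Levels are CPM.

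PBS 14 was low in collagen and scar genes. It had 3318 of Col1a1 against 4747 to 5207 in the other PBS libraries, 3070 of Col1a2 against 4295 to 4728, 12.03 of P4ha3, 56.8 of Fkbp10, 136 of Mmp14 and 10.9 of Trem2. Mean log2 CPM in PBS 14 was 8.60 for collagen chains, against 8.96 to 9.10, 6.03 for collagen processing, 4.73 for matrix proteases and inhibitors and 5.32 for activated fibroblast genes.

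PBS 6 was high in genes of other tissues, with 44.8 of Sftpc, 7.47 of Mylpf and 3.37 of Ager, and had 99.5 of C1qtnf3 against 27.04 to 44.8. In rHCI 11, Sftpc was 0.110 against 0 to 0.0166. rHCI 1 was high in atrial genes, with 145 of Myl7, 43.4 of Sln and 28.99 of Mybphl, and PBS 2 had 11.3 of Mybphl.

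rHCI 13 was high in Erdr1, at 4.21 against 1.30 to 1.602, and in Gm15726, at 0.424 against 0 to 0.0737. PBS 12 had 7.26 of Erdr1 against 5.53 to 5.81, and 40.04 of Ccl6 against 30.1 to 32.3. rHCI 3 had 6.44 of Mid1 against 4.68 to 5.16, and 15.4 of Mcm2 against 11.3 to 12.2. rHCI 1 had 6.34 of Dhx58 and 6.42 of Lair1, against 7.82 to 8.30 of Lair1 in the other rHCI libraries, so the lowest Lair1 value of the comparison stood apart too. PBS 2 had 2.71 of Cxcr2 against 0.805 to 1.33. In rHCI 11 the mean log2 CPM of cytokines and chemokines was 1.47 against 1.90 to 2.01.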

How the results depend on the processing

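The number of genes past an adjusted p of 0.05 was 0 with edgeR under RLE factors, no filter, a stricter filter, all 15 libraries in 1 fit, the run covariate, the shared run alone and the sarcomere and collagen covariate, 6 with DESeq2, 3 with limma-voom and 0 to 3 with 1 library left out. The 579 genes at an unadjusted p under 0.05 became 2019 with limma-voom, 1077 without a filter, 380 in the shared run, and 362 to 2066 with 1 library left out. Antiviral effectors lower at that p numbered 15 to 35 with 1 library left out, beside those 362 to 2066 of all genes in either direction. Genes with an interval within 1.5-fold numbered 12302 to 13063 and within 2-fold 15251 to 15537 with 1 library left out. With 1 library left out, the median of collagen chains ranged from −0.39 to −0.17 and that of antiviral effectors from −0.18 to −0.13. With the sarcomere and collagen covariate these medians were −0.02 and −0.12.

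Of 1416 values of named genes under the alternatives, 6 changed sign, as did 78 of 1101 list medians. With the sarcomere and collagen covariate 38 of 58 list medians were nearer 0. Mylpf was 0.025 in the shared run, and −2.18 to 0.0036 with 1 library left out, the latter without PBS 6, and Mybphl −0.060 in the shared run. Nppa was 0.13 with the sarcomere and collagen covariate, and with 1 library left out −0.33 to 0.048, with 0.013 without rHCI 11 and 0.048 without rHCI 13. The cause was not tested. No paired analysis was possible because replicate numbers are not shared between the groups. Limits are the 5 libraries per group, a single time of 2 days, mixed tissue and too few counts for interferon ligands. PBS 6 and rHCI 1 each carried a number in the labels that no other infarcted library had.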
